A study of Rattus norvegicus with 8 samples.

Results

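The 9 receptor genes described here respond to gut hormones and feeding peptides: Cckar, Sctr, Glp1r, Gipr, Npy2r, Ntsr1, Ghsr, Lepr and Mc4r. They were taken by gene symbol from the 30560 genes of the count matrix, and all 9 had a row. The nuclei came from the nodose ganglia of untreated Long Evans rats, an outbred stock, 8 weeks of age, 18 of each sex. Ganglia of 1 side from 6 rats were combined in each of 12 pools, 3 each of male left (ML1 to ML3), male right (MR1 to MR3), female left (FL1 to FL3) and female right (FR1 to FR3). Fixed nuclei were barcoded in rounds of splitting and pooling (Parse Evercode) and sequenced in 8 sublibraries, each holding nuclei of all pools. With 18 rats per sex and 6 in each of 3 pools per side, left and right pools of a sex drew on the same rats. Which rats shared a pool is not given in the sources used here, single rats cannot be followed, and the tests below treat the 12 pools as independent. Their p-values measure the spread between pools.

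The nodose ganglion holds the cell bodies of vagal sensory neurons, whose fibres run from the gut, heart and lungs to the brainstem. Endocrine cells of the gut release cholecystokinin, secretin, glucagon-like peptide 1, glucose-dependent insulinotropic polypeptide, peptide YY and neurotensin after a meal, ghrelin comes from the stomach in fasting, and leptin from fat. Most of their receptors are G protein-coupled: the receptors for secretin, glucagon-like peptide 1 and glucose-dependent insulinotropic polypeptide, and the melanocortin receptor Mc4r, raise cyclic AMP through Gs, those for cholecystokinin, neurotensin and ghrelin act mainly through Gq, the Y2 receptor lowers cyclic AMP through Gi, and the leptin receptor is a cytokine receptor that signals through JAK2 and STAT3.

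Promoter sequence was matched by symbol for 7 of the 9 genes, from RefSeq on GRCr8, a later build than the mRatBN7.2 named in the submitters' processing notes. Shown are the 250 bases before the annotated start, 5′ to 3′ on the gene's strand, of Sctr, Glp1r, Npy2r and Ntsr1. Among the subclusters described below, Sctr and Npy2r had their highest mean level in n5, Glp1r in n14 and Ntsr1 in n10. Capitals mark CANNTG, the E-box core, which reads the same on both strands. The windows are chr13:33680377-33680626 on the + strand for Sctr, chr20:8973143-8973392 on the + strand for Glp1r, chr2:170203101-170203350 on the - strand for Npy2r and chr3:187983528-187983777 on the + strand for Ntsr1.
Sctr: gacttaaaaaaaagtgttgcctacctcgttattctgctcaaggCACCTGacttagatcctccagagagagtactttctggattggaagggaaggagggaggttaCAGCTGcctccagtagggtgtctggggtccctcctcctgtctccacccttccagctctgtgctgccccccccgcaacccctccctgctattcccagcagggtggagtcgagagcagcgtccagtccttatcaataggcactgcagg
Glp1r: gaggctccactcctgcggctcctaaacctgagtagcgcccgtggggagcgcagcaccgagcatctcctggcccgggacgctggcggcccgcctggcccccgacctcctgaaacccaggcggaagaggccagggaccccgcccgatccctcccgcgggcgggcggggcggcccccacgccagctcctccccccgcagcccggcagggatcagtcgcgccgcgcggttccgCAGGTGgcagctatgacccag
Npy2r: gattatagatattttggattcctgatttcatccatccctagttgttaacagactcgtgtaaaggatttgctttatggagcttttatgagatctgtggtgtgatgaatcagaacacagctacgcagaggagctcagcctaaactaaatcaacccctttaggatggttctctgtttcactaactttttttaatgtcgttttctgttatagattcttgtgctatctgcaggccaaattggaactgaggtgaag
Ntsr1: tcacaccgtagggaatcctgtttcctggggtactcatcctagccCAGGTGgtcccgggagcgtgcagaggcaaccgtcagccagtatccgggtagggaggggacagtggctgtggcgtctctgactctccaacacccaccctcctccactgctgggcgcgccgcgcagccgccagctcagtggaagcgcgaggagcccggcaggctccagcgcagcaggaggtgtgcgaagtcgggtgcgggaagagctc
The Sctr window held 2 E-boxes, 207 and 146 bases before the start, Glp1r held 1 at 21 bases and Ntsr1 1 at 206 bases, and Npy2r held none. Of 33469 promoter windows of the same length, 65.5% held this motif. GC content ran from 38.8% in Npy2r to 75.6% in Glp1r, around a median of 51.2% over all windows. The Glp1r window also matched GGGCGG, searched on both strands, 4 times, some of them overlapping, and 30.5% of all windows held a match. TATAAA, found in 12.9% of windows, and the cyclic AMP response element TGACGTCA, found in 1.59%, matched none of the 4. A match is a string of letters, not a measured site.

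After quality filters 36740 nuclei remained, with 1738 to 4849 per pool. Clustering without the 9 receptors gave 25666 neurons (1276 to 3645 per pool, median 2910 UMIs, that is, distinct transcript molecules, per nucleus) in 28 subclusters, n1 to n28, numbered by size. It also gave 4213 satellite glia, 1550 skeletal muscle, 881 endothelial, 674 myelinating Schwann and 86 fibroblast nuclei, and 3670 nuclei without a name. Levels are given as CPM, the gene's UMIs scaled to a common total of UMIs per group (counts per 1e6), and are compared within a gene only, since they are not corrected for gene length. Y-linked genes summed to 2.88 CPM in ML1, labelled male, and to 88.7 CPM in FL1, labelled female, so both pools went against their sex label. Both are left pools, and the tests by side and by labelled sex were repeated without them. In all, 3808 nuclei shared their well combination with a nucleus of another sublibrary and were told apart by the sublibrary.

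**Figure D1:**
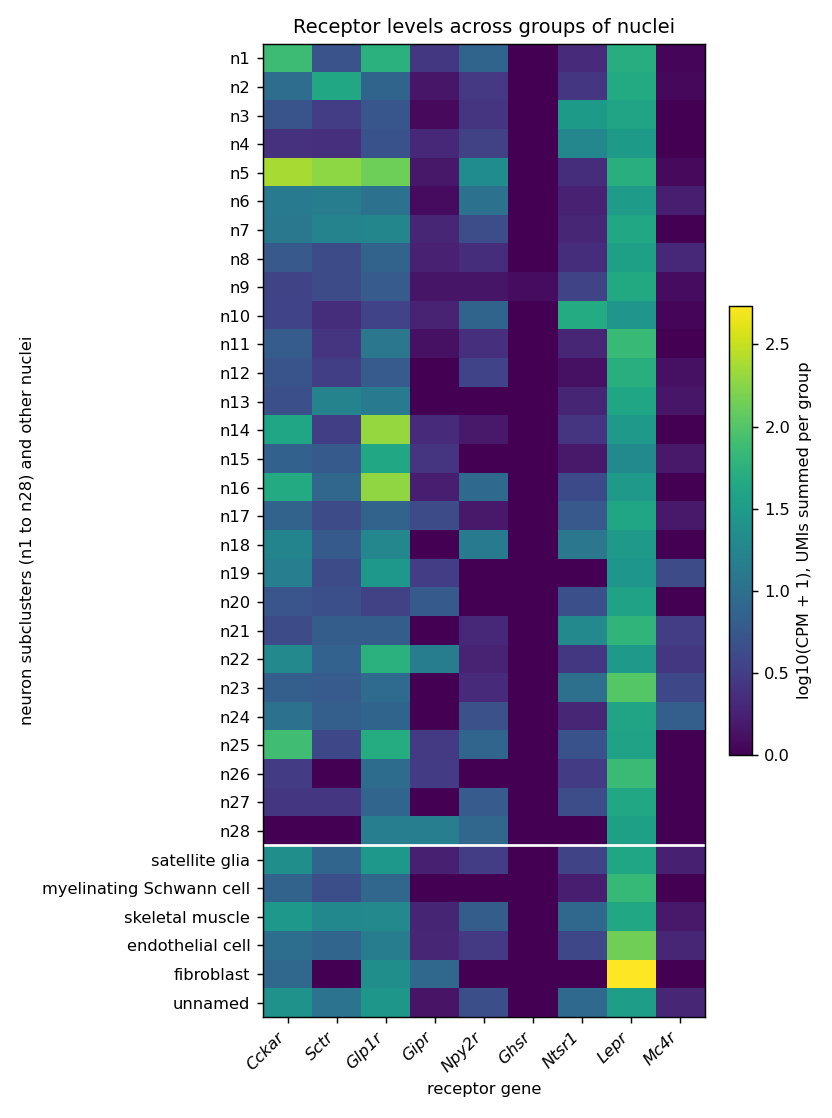
Level of each of the 9 receptors (columns) in the 28 neuron subclusters and the other nuclei (rows, split by the white line). Colour gives log10(CPM + 1) of UMIs summed per group. Cckar and Sctr are brightest in n5, Glp1r in n14, n16 and n5, Ntsr1 in n10, and Lepr in fibroblasts, while Ghsr is dark throughout.

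Cckar, the receptor through which cholecystokinin signals satiety to the vagus, was concentrated in n5. This subcluster of 1718 nuclei made up 6.69% of neurons and held 50.4% of the neurons' Cckar UMIs. Its level was 240 CPM ± 55.7 (SD, n = 12 pools; range 145.6 to 319), and n5 had the highest Cckar level of all subclusters in 12 of 12 pools. The next levels were 72.9 CPM ± 52.9 in n25 and 72.4 CPM ± 15.7 in n1, 2 neighbours that did not differ beyond their spread, and the median over subclusters was 5.79 CPM. No Cckar UMI was seen in the 57 nuclei of n28, where 3 UMIs would have been 20.9 CPM. The 10 genes with the largest fold in n5 over the other neurons included Sctr, Cckar, Xylt1, the nicotinic receptor subunit Chrna3, St18, Sema3e and Rgs9. Prdm12, which marks jugular neurons, stood at 0.161 CPM in n5. n5 counted as neuronal with 3 neuron markers past the limit, the fewest the naming rule allowed. When the clustering was repeated with the receptors in it and the marker reference kept, a subcluster with the same leading genes stayed neuronal (1728 nuclei, 3 markers past the limit). When the marker reference was rebuilt as well, most nuclei of n5 left the neuron class. The highest Cckar level among the remaining subclusters was then 101.7 CPM.

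With each nucleus thinned to 2000 UMIs and shallower ones left out (1233 of 1718 kept), 33.3% of n5 nuclei had a Cckar UMI (95% exact binomial interval 30.6% to 36.0%). Without thinning the share was 45.3%. Among myelinating Schwann nuclei, which should lack the receptor and had a median of 1631 UMIs against 2991 in n5, the thinned share was 0 of 261, which allows up to 1.40%. Satellite glia and skeletal muscle stood at 3.86% and 5.08%, close to the 5.30% of all neurons. The share over all neurons was therefore near that of satellite glia and muscle and above that of myelinating Schwann nuclei, and n5 stood far above all of them. Intervals cover counting error only, and neuronal RNA outside its own nuclei was not tested as a source of the glial UMIs.

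Sctr, the secretin receptor, was concentrated in the same subcluster. Its level in n5 was 183.3 CPM ± 28.5 (n = 12; range 145.8 to 228.1), and n5 led in 12 of 12 pools and held 62.0% of the neurons' Sctr UMIs. The second level, 39.8 CPM ± 14.1 in n2, had a highest pool value of 65.8 CPM, below the lowest of n5. n2 was led by Tafa4, Esr1, the oestrogen receptor, and Crhr2. A Sctr UMI was found in 28.9% of thinned n5 nuclei (26.4% to 31.5%), in 3.35% of all neurons, in 1.18% of satellite glia and in 0.383% of myelinating Schwann nuclei. Skeletal muscle stood at 4.06%, no lower than neurons as a whole. Unthinned, the n5 share was 40.3%.

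Glp1r, the target of glucagon-like peptide 1 and of drugs that mimic it, was spread over 3 subclusters. Its level was 200.9 CPM ± 46.1 in n14 (668 nuclei), 189.3 CPM ± 55.6 in n16 (640 nuclei) and 137.4 CPM ± 33.4 in n5 (n = 12 pools each). n14 and n16 did not differ beyond their spread, and n14 was the higher in 7 of 12 pools. The next was n22 at 56.1 CPM ± 28.8. n14 was led by Rnf220, Nxph1, Arhgap6, Kcnk2 and Slit2, and n16 by Agtr1a, the angiotensin receptor, Hmcn1, Ntrk3 and Grin2a. Thinned shares of nuclei with a Glp1r UMI were 30.7%, 28.6% and 22.6% in n14, n16 and n5. All neurons together had 5.57%, next to the 5.55% of satellite glia, and myelinating Schwann nuclei had 1.53%. Of the shares given here, those of the 3 subclusters stood above satellite glia, and that of neurons as a class did not. In n22, unthinned, 48 of 345 nuclei had a Glp1r UMI, a share that was not set beside these thinned ones.

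Gipr, the receptor for the other incretin hormone, gave only 97 UMIs in neurons, 0.999 CPM (exact Poisson interval 0.81 to 1.22). Of these, 15 lay in n22, a group of 345 nuclei led by Ddc, Dcc, Slc6a2, the noradrenaline transporter, and Gata3, with Th among its first 10 genes. The Gipr level there was 14.8 CPM ± 13.2, with 0 UMIs in 3 of 12 pools. The share of thinned nuclei with a UMI was 1.84% in n22, 0.185% in all neurons and 0.141% in satellite glia.

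Npy2r, the Y2 receptor for peptide YY, also had its highest mean in n5, at 20.1 CPM ± 5.13 (n = 12; range 11.9 to 31.3). n5 was the highest subcluster in 8 of 12 pools, and the second, n18 at 13.4 CPM ± 15.7, did not differ from it beyond its spread. n5 held 26.1% of the 482 Npy2r UMIs of neurons. A UMI was found in 3.00% of thinned n5 nuclei (2.12% to 4.11%), 0.885% of all neurons and 0.564% of satellite glia. Skeletal muscle stood at 1.02%, and no Npy2r UMI was found in 674 myelinating Schwann nuclei. The n6 subcluster, deeper at a median of 6175.5 UMIs, had 2.72%.

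Ntsr1, the high-affinity neurotensin receptor, occupied other neurons. It was highest in n10 (1120 nuclei, median 6359.5 UMIs) at 47.6 CPM ± 12.9, then in n3 at 28.6 CPM ± 12.7 and n4 at 17.8 CPM ± 5.40, and the spreads of n10 and n3 overlapped. n10 and n3 shared the leading genes Itgae, Gpr65, a proton-sensing receptor, and Chrm2, a muscarinic receptor. n10 held 42.4% of the neurons' Ntsr1 UMIs, whereas 8 of the 1718 nuclei of n5 carried a UMI, a level of 1.29 CPM. A UMI was found in 9.31% of thinned n10 nuclei (7.67% to 11.2%), 22.1% unthinned, against 0.659% of satellite glia, 1.27% of skeletal muscle and 0.383% of myelinating Schwann nuclei.

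Lepr, the leptin receptor, had its highest level outside neurons. Fibroblasts had 543 CPM (exact Poisson interval 426.5 to 682) from 74 UMIs in 86 nuclei, endothelial nuclei 136.6 CPM (121.1 to 153.5) and myelinating Schwann nuclei 66.3 CPM (53.6 to 81.2). Neurons, satellite glia and skeletal muscle stood together at 40.3, 40.6 and 42.2 CPM. Over pools the endothelial level was 147.1 CPM ± 53.2 (range 94.5 to 301.9) and the neuronal one 40.6 CPM ± 3.12 (range 36.0 to 47.0). How many of all genes separate these classes in this way was not counted. Fibroblasts varied widely, from 0 to 794.6 CPM, with few nuclei per pool. The thinned share of nuclei with a UMI was 24.6% in endothelial nuclei, 11.1% in myelinating Schwann nuclei and 7.41%, 8.00% and 8.25% in neurons, glia and muscle, so the share in neurons as a class was no higher than in glia.

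**Figure D2:**
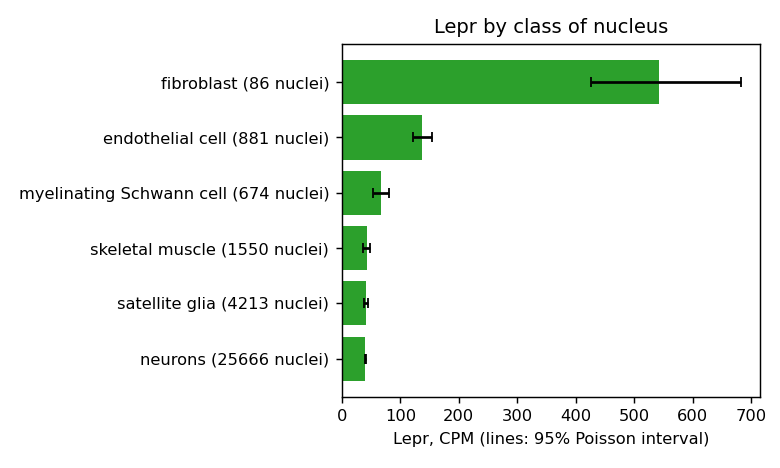
Lepr level (CPM of summed UMIs, horizontal axis) in 6 classes of nuclei, with exact Poisson intervals of 95% as lines and the number of nuclei in brackets. Fibroblast nuclei reach 543 CPM and endothelial nuclei 136.6 CPM, while neurons, satellite glia and skeletal muscle lie between 40.3 and 42.2 CPM.

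Within neurons Lepr was flatter than the other receptors. Its highest subcluster, n23, led by Gabrg1, Syndig1 and Tmem196, had 99.1 CPM ± 37.0, followed by n11 at 70.2 CPM ± 27.47, and these 2 did not differ beyond their spread. The lowest, n15, still had 19.6 CPM ± 10.2, around a median over subclusters of 39.3 CPM. Thinned, 17.9% of n23 nuclei had a UMI. When neurons were divided more finely, another group of nuclei led, at 107 CPM, which shared 0% of n23's nuclei, so the leading place of n23 depended on the resolution.

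Ghsr, the ghrelin receptor, and Mc4r, the melanocortin receptor best known for its part in hypothalamic control of feeding, were close to absent at this depth. A single Ghsr UMI was found, in a neuron of FL2, and 3 UMIs over all neurons would have been 0.0309 CPM. Mc4r gave 38 UMIs in neurons, 0.391 CPM (0.277 to 0.537), and 10 in satellite glia, 0.728 CPM (0.349 to 1.34), so it was not detectably higher in neurons. Its highest mean over subclusters, 3.801 CPM ± 11.6 in n24, came mainly from FL3, which held 5 of its 6 UMIs.

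Cckar, Sctr and Glp1r were found together in a nucleus more often than independent detection gives. Of 17845 thinned neurons, 128 had UMIs of both Cckar and Sctr where 31.6 would follow from independent detection, a ratio of 4.05. The ratio was 3.61 for Cckar with Glp1r (190 nuclei) and 2.62 for Sctr with Glp1r (87 nuclei), but 1.24 for Cckar with Lepr and 0.276 for Cckar with Ntsr1 (4 nuclei against 14.5). Npy2r gave ratios of 2.75 with Cckar (23 nuclei) and 2.84 with Glp1r (25 nuclei), but only 7 nuclei with Sctr against 5.29 and 3 with Ntsr1 against 2.43. Without thinning the last pair had 28 nuclei against 11.9, a ratio of 2.36. Inside n5, over all depths, the pairs with Sctr were near independence, at ratios of 1.12 with Cckar (351 nuclei), 1.14 with Glp1r and 1.12 with Npy2r. The ratio was 1.40 for Cckar with Glp1r, 1.59 for Cckar with Npy2r and 1.88 for Glp1r with Npy2r. Depth varies between nuclei of n5, and its part in these ratios was not tested. Without the 5% of nuclei with the highest doublet scores the Cckar with Sctr ratio over all neurons was 4.64, against 4.58 with them. Over all 25666 neurons, unthinned, 70.4% had no UMI of any of the 9 receptors, 22.9% had one receptor, and 4.97% had 2.

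A finer division split n5 mainly into a larger part (1028 nuclei, median 2296.5 UMIs) and a smaller, deeper one (563 nuclei, median 5117 UMIs). Npy2r was 5.56 CPM ± 5.52 in the larger part (n = 12 pools, range 0 to 16.3). In the smaller it was 34.1 CPM ± 8.35 (n = 12 pools, range 19.97 to 47.8). How many of all genes separate these parts in this way was not counted. Cckar was 168.7 CPM ± 44.7 and 321.7 CPM ± 79.3, and Glp1r 104.5 CPM ± 24.6 and 168.1 CPM ± 44.0. Sctr went the other way in its mean, 187.7 CPM ± 58.0 against 153.1 CPM ± 38.0, within its spread. The part with the higher Cckar, Glp1r and Npy2r levels was thus also the part with more UMIs per nucleus, and what depth contributes to the division was not tested.

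**Figure D3:**
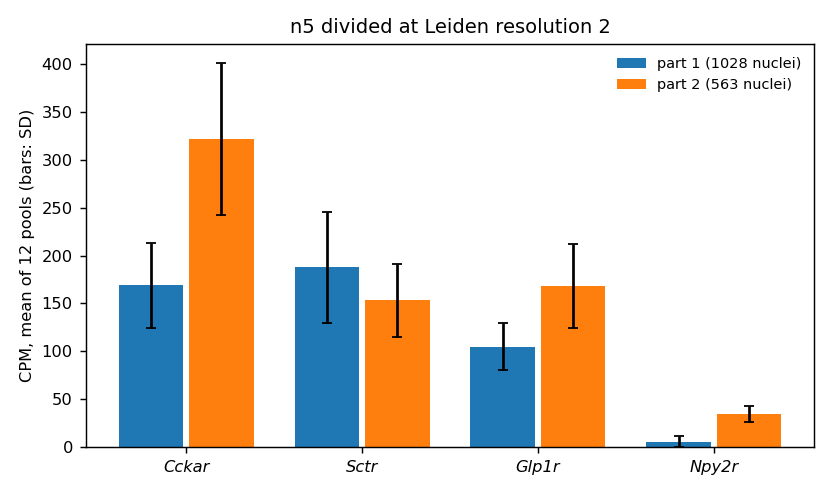
Mean level over 12 pools (CPM, bars; lines give the SD) of 4 receptors in the 2 main parts of n5, of 1028 and 563 nuclei. Npy2r is 5.56 CPM in the larger part and 34.1 CPM in the smaller, while Sctr is 187.7 and 153.1 CPM.

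Genes with the most similar pattern were ranked by Pearson r of log2(CPM + 1) over the 28 subclusters, out of 11670 genes. The subclusters share libraries and differ in size and depth, so r is a description. For Cckar they were Fam163a (0.81), Nnat (0.79), Glp1r itself (0.79), ENSRNOG00000011132 (0.79) and Tmed8 (0.79). For Sctr they were Dpp4 (0.73), the peptidase that cleaves glucagon-like peptide 1 and peptide YY, Fam163a (0.72), Evi5 (0.71), Ano5 (0.67) and ENSRNOG00000011042 (0.67). Dpp4 was highest in n2, however, and stood at only 6.93 CPM in n5. Glp1r was followed by Syt17 (0.87), ENSRNOG00000011132 (0.85), ENSRNOG00000026336 (0.84) and Inppl1 (0.79). For Ntsr1 they were Gpr65 (0.79), ENSRNOG00000047605 (0.70), Sh2d4a (0.70), Itgae (0.69) and ENSRNOG00000065259 (0.69). Npy2r was closest to Anapc5 (0.81), Dkk3 (0.79), Bcap29 (0.78), Ccni (0.78) and Actn4 (0.77), and Lepr to Nol4 (0.74), Mta2 (0.70), Ifi27 (0.66), Parp6 (0.65) and Map3k9 (0.63). None of the genes listed for Ntsr1, Npy2r or Lepr was highest in the leading subcluster of that receptor. For Cckar, Sctr and Glp1r some of the listed genes did peak in the receptor's leading subcluster and others did not. A high r thus need not be a shared peak.

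Left and right ganglia were dissected separately, which asks whether receptor levels differ between the sides. Of the 9 receptors, 6 passed the filter on low counts and entered edgeR's quasi-likelihood test on UMIs summed over the neurons of each pool. None was called at an adjusted p under 0.05 (Benjamini-Hochberg over 13959 genes), where 17 genes, 0.122%, were: 13 higher on the right (0.0931%) and 4 lower (0.0287%). At an unadjusted p under 0.05 the count was 4 of 6, against 938 of all genes, 6.72%. DESeq2 called 2 of the 6, Cckar and Sctr, and 66 genes in all. It gave 4881 of the 13959 genes no adjusted p, so its base was smaller than that of edgeR. Cckar, Sctr, Glp1r and Npy2r, the 4 with an unadjusted edgeR p under 0.05, share n5, so they are not independent of each other. In no member did every right pool lie above every left pool, which held for 45 genes, 0.322%, nor every right pool below, which held for 21, 0.15%.

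Cckar over all neurons had a lowest, median and highest pool value of 14.8, 24.4 and 33.2 CPM on the left and 29.6, 36.0 and 41.9 CPM on the right. The right pools were mostly the higher, and the groups overlapped. The means were 24.2 CPM ± 7.64 and 36.2 CPM ± 5.20 (SD, n = 6 pools each), a log2 difference of 0.58 ± 0.14 (SE) that did not pass with edgeR (adjusted p = 0.199). Sctr had 12.99, 14.99 and 16.9 CPM on the left and 15.4, 20.1 and 29.2 CPM on the right. Only MR3, the lowest right pool, lay within the left range. The log2 difference of 0.51 ± 0.11 did not pass with edgeR either (adjusted p = 0.0948). DESeq2 gave adjusted p-values of 0.00954 for Cckar and 0.004 for Sctr, edgeR without the filter on low counts 0.00615 and 0.0102, and edgeR without ML2 0.0405 for Sctr. With any other single pool left out, edgeR's adjusted p for Sctr ran from 0.0793 to 0.281. Without ML1 and FL1 edgeR's adjusted p was 0.564 for Cckar and 0.470 for Sctr, at log2 differences of 0.55 and 0.49.

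The other 4 receptors gave smaller or less certain values, none of which passed with edgeR. Glp1r ranged from 17.5 to 34.5 CPM on the left (median 30.2) and 25.7 to 37.1 CPM on the right (median 34.8), a log2 difference of 0.29 ± 0.13 (adjusted p = 0.727). Npy2r ranged from 2.36 to 5.02 CPM on the left (median 4.60) and 4.87 to 7.97 CPM on the right (median 5.26), a log2 difference of 0.44 ± 0.17 (adjusted p = 0.662). Sides overlapped in both. Lepr, at means of 40.8 and 40.4 CPM, had a log2 difference of -0.02 ± 0.07 (adjusted p = 0.978), and Ntsr1, at 8.97 and 9.79 CPM, one of 0.08 ± 0.16 (adjusted p = 0.965). Without ML1 and FL1 the log2 differences of Glp1r, Npy2r, Lepr and Ntsr1 were 0.24, 0.31, -0.06 and 0.09.

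**Figure D4:**
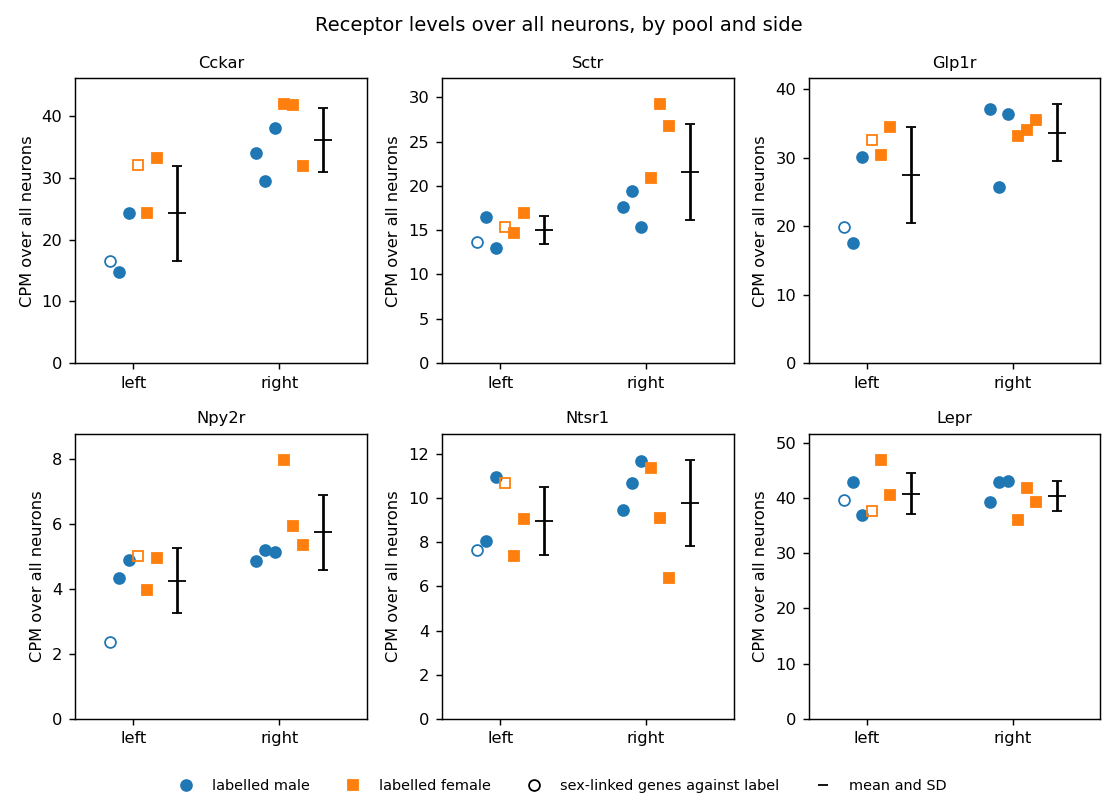
Level of the 6 tested receptors over all neurons (CPM, vertical axes from 0) in each of 6 left and 6 right pools. Circles are pools labelled male, squares labelled female, open symbols the 2 pools whose sex-linked genes go against the label, and bars the mean and SD. Cckar has means of 24.2 CPM on the left and 36.2 CPM on the right, and Lepr of 40.8 and 40.4 CPM.

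A level over all neurons joins how many neurons carry a receptor with how much each carries. Measured here were the share of neurons in a leading subcluster and the level within it. Such a share is not a count of carriers: n5 held 50.4% of the neurons' Cckar UMIs and 26.1% of their Npy2r UMIs. What share and level contribute to a side difference was not tested. The n5 share of a pool's neurons had a lowest, median and highest value of 2.99%, 4.89% and 6.14% on the left and 7.45%, 8.24% and 9.47% on the right, with no overlap. This held for 1 of 28 subclusters, 3.57%. The means were 4.84% ± 1.08 and 8.29% ± 0.812 (n = 6 pools each), a difference of 3.45 points and a ratio of 1.71. An exact permutation test of sides within labelled sex, two-sided, gave p = 0.005, the smallest its 400 relabellings can give, and 0.07 after adjustment over the 28 subclusters. None of the 28 passed after adjustment, and 3 had an unadjusted p under 0.05: n5, n22 and n4. The share of n22, where Gipr was highest, was 0.414 points higher on the right, a ratio of 1.375. It had the same exact p of 0.005 and adjusted p of 0.07 as n5, but its sides overlapped. The n4 share went the other way, by -2.01 points (exact p = 0.01, adjusted 0.0933). Without MR3 the adjusted exact p for n5 was 0.0467, and the lowest for n22 over 16 alternative settings was also 0.0467. Without ML1 and FL1 the n5 difference was 3.17 points (exact p = 0.01, the smallest that so few pools allow, adjusted 0.187). With the rebuilt marker reference named above, n5 is no longer among the neurons, and Cckar over the remaining ones had a log2 difference between sides of 0.43 (edgeR adjusted p = 0.518), Sctr of 0.23 (adjusted p = 0.930), Glp1r of 0.16 (adjusted p = 0.935) and Npy2r of 0.40 (adjusted p = 0.891).

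Inside n5 no receptor differed between sides beyond its spread. Cckar was 241 CPM ± 67.2 on the left and 238.8 CPM ± 48.0 on the right, log2 difference -0.09 ± 0.13 (edgeR adjusted p = 0.980). Sctr was 187 CPM ± 28.7 and 179.7 CPM ± 30.5, log2 difference -0.02 ± 0.12 (edgeR adjusted p = 1.00). The sides overlapped almost wholly in both. Glp1r stood at 141.8 and 133 CPM, Npy2r at 20.1 on both sides and Lepr at 54.6 and 51.0 CPM. Without ML1 and FL1 the signs for Cckar, Sctr and Glp1r within n5 turned, to 0.05, 0.05 and 0.04, and Npy2r and Lepr stood at -0.20 and -0.30, none past the threshold with edgeR. No gene of 7326, 0%, was called by edgeR in n5 (330 at an unadjusted p under 0.05, 1 called by DESeq2). With n5 left out, the log2 difference over the remaining neurons was 0.41 ± 0.14 for Cckar (edgeR adjusted p = 0.752) and 0.14 ± 0.18 for Sctr (adjusted p = 0.942), against 0.58 and 0.51 with it.

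n14 and n10 were the other leading subclusters with at least 20 nuclei in each pool. In n14 Glp1r was 207.7 CPM ± 63.4 on the left and 194 CPM ± 23.4 on the right, log2 difference -0.10 ± 0.17 (edgeR adjusted p = 0.999), and -0.22 without ML1 and FL1. There too no gene of 3820, 0%, was called (123 at an unadjusted p under 0.05, 0 by DESeq2). Ntsr1 inside n10 had a lowest, median and highest pool value of 29.9, 39.2 and 43.4 CPM on the left and 40.9, 61.2 and 68.4 CPM on the right. A single right pool, FR3, lay within the left range. The log2 difference of 0.59 ± 0.16 did not pass with edgeR (adjusted p = 0.0714), where 66 of 7850 genes, 0.841%, were called, 31 higher (0.395%) and 35 lower (0.446%) on the right. Its edgeR adjusted p was 0.0236 without FR3, 0.0397 without the highest doublet scores, 0.0757 without ML1 and FL1, and 0.171 with DESeq2 on all pools. With any single pool other than FR3 left out it ran from 0.0563 to 0.226. The n10 share of neurons was 5.50% ± 1.26 on the left and 3.84% ± 1.39 on the right (exact permutation p = 0.085), so share and level had opposite signs, and Ntsr1 over all neurons differed by 0.08.

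**Figure D5:**
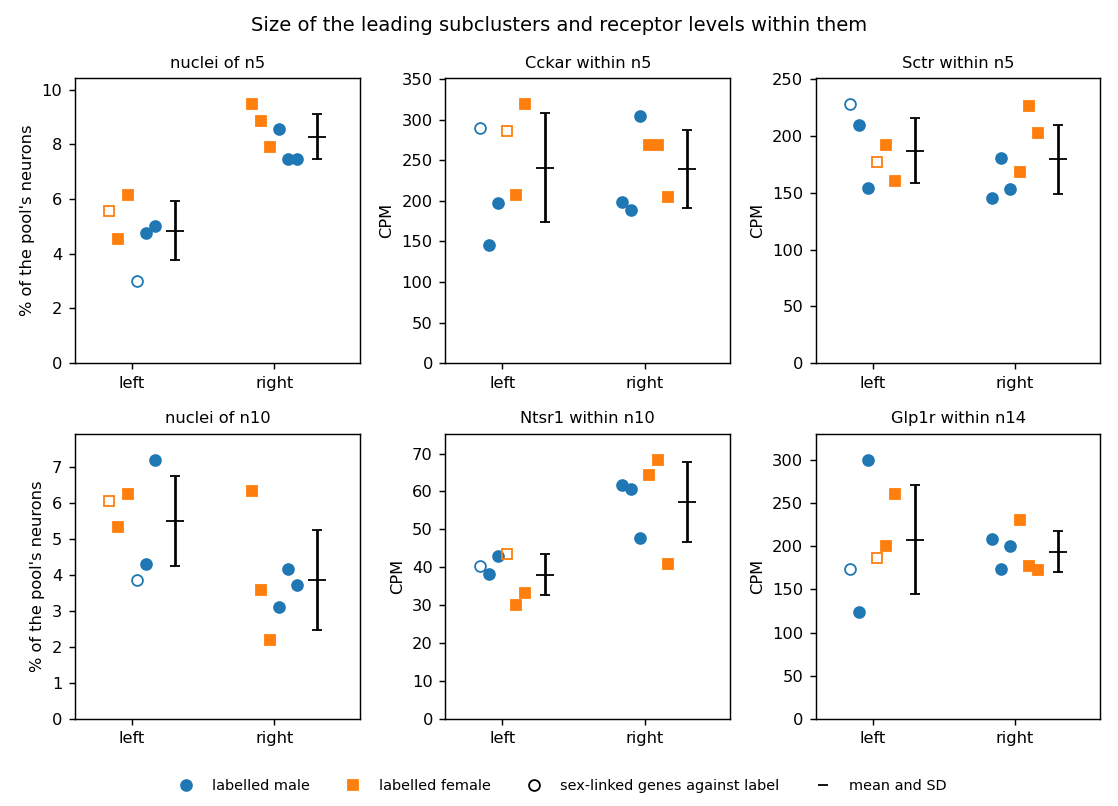
Left column, share of each pool's neurons in n5 (top) and n10 (bottom), in percent. Other panels, levels in CPM of Cckar and Sctr within n5, Ntsr1 within n10 and Glp1r within n14, for 6 left and 6 right pools with mean and SD, symbols by labelled sex and open for the 2 pools against their label. The n5 shares do not overlap between sides (2.99% to 6.14% and 7.45% to 9.47%), whereas Cckar and Sctr within n5 overlap.

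By labelled sex none of the 6 receptors was called by edgeR in neurons, and no gene of 13959, 0%, was. This fit keeps ML1 and FL1, whose Y-linked genes went against their labels, so each labelled sex mixed pools. No Y-linked gene was called either, so the absence of calls says little about sex itself. Without those pools some genes were called, none of them one of the 6 (counts are given below). On all pools the count at an unadjusted p under 0.05 was 2 of the 6 receptors and 2639 of the 13959 genes, so low p-values were common among all genes. DESeq2 called 384 genes and none of the 6. Cckar had 14.8, 27.0 and 38.0 CPM in pools labelled male and 24.4, 32.7 and 41.9 CPM in those labelled female (lowest, median and highest), with wide overlap. Its log2 difference was 0.41 ± 0.14 (edgeR adjusted p = 0.152), and 0.30 without ML1 and FL1. Sctr was 12.99, 15.9 and 19.4 CPM against 14.6, 18.9 and 29.2 CPM, a log2 difference of 0.34 ± 0.11 (edgeR adjusted p = 0.133), and 0.38 without those pools. Glp1r, Npy2r, Lepr and Ntsr1 had log2 differences of 0.27, 0.33, -0.04 and -0.13, and of 0.18, 0.19, -0.03 and -0.27 without those pools. Within n5 they were 0.22 ± 0.13 for Cckar (edgeR adjusted p = 0.665) and 0.10 ± 0.12 for Sctr (adjusted p = 0.868), and 0.26 and 0.18 without those pools.

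Whether the side difference itself differed between labelled sexes was tested with an interaction term. No gene, 0%, was called by edgeR (568 at an unadjusted p under 0.05, 0 by DESeq2). Among the receptors Sctr had an interaction of 0.42 ± 0.19 on the log2 scale (an unadjusted p under 0.05, edgeR adjusted p = 1.00), Cckar one of -0.52 ± 0.26 and Glp1r one of -0.48 ± 0.24 (adjusted p = 1.00 for both). Without ML1 and FL1 these were 0.47, -0.36 and -0.36.

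The spread of levels between pools, which holds the differences between rats, sides and sexes as well as counting error, is given as a coefficient of variation beside that from counting alone. It was 29.2% against 6.71% for Cckar, 27.9% against 8.49% for Sctr and 20.9% against 6.68% for Glp1r. For Lepr the values were closer, 7.68% against 5.83%, and for Gipr the pools varied no more than counting, 31.1% against 37.1%. Between the 8 sublibraries, which hold nuclei of all pools, Cckar varied by 5.29% where counting gives 5.21%.

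The partners of these receptors were measured through lists of pathway genes, and no list had a gene called by edgeR for side or labelled sex. All 12 ligand genes lay under 1 CPM in neurons and none entered the test, the highest being Npy (0.5675 CPM) and Ghrl (0.559 CPM). Of 28 related receptors in the matrix 10 were tested, led by Oprm1, the mu-opioid receptor (668.3 CPM ± 90.9), and Sort1, a neurotensin-binding sorting receptor (168.1 CPM ± 19.7). Their median log2 difference between sides was -0.13, against -0.01 over all genes tested and 0.36 over the 6 receptors. Of 7 listed accessory proteins 5 were matched to a single row, all but Ramp1 and Ramp2, and 4 were tested, at a median of 0.16. Among these were Mrap2, a partner of melanocortin and ghrelin receptors (53.2 CPM ± 4.83), and Ramp3 (7.84 CPM ± 1.20).

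Most of the listed signalling genes were measured in the summed neurons, while Plcb2, Kcnj5 and Socs3 lay under 1 CPM and did not enter the test. Of 20 genes listed for Gs and cyclic AMP signalling, 19 were matched to a single row, all but Gnas, and all 19 were tested. Rapgef4 (647.9 CPM ± 56.8) and the adenylyl cyclase Adcy2 (484.2 CPM ± 29.4) were highest, and the median log2 difference between sides was -0.05. For Gq and calcium signalling 15 of 16 listed genes were matched, all but Trpc5, and 14 were tested (Prkce 1171 CPM ± 85.9, Gnaq 686.9 CPM ± 50.6, median -0.04). For Gi signalling 9 of 10 were tested (Gnao1 1053 CPM ± 24.2, Kcnj3 146.3 CPM ± 17.4, median -0.01). Leptin signalling had 11 of 12 tested (Stat3 165.9 CPM ± 13.8, Pik3ca 158.9 CPM ± 5.77, median 0.01), and the 6 receptor kinases and arrestins a median of 0.00 (Grk5 224.4 CPM ± 10.01, Grk3 218.8 CPM ± 17.2).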

How the data were processed

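Values are raw UMI counts per gene and nucleus as the authors deposited them, with R 4.3.2, Seurat 4.1.3 and mRatBN7.2 named in the submitters' processing notes. For the aligner and the counter the entry is: not given in the sources used here. Nuclei with under 300 genes or over 5% mitochondrial UMIs were removed (1 in all). The doublet caller scrublet marked 1 nucleus and so did not work here; removing the 1839 nuclei with the top 5% of scores was an alternative. The 9 receptors and the gene lists were chosen with earlier results of these data known. Clustering (scanpy 1.11.5, leidenalg 0.10.2) left the 9 receptors out: 3000 variable genes, 30 components, 20 neighbours, resolution 1, then neurons alone with 2000 genes. Classes were named from listed markers (at least 3 past 2-fold, neurons 1.5-fold), a rule set after seeing clusters.

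UMIs were summed per pool (4925706 to 14434755 in neurons), scaled by TMM, filtered by filterByExpr and tested with edgeR 4.0.16 (R 4.3.3; quasi-likelihood, side and labelled sex as terms, Benjamini-Hochberg over all genes, threshold 0.05). DESeq2 1.42.0 was an alternative, in which 4881 genes got no adjusted p for side. On counts simulated for the side comparison over 13959 genes, 88% of genes set 1.5-fold up and 100% of those set 2-fold up were called, 72% of those set to 0.667 and 88% of those set to 0.5 of their level, with 6 false calls. The changed genes, 50 at each fold in 1 simulation, were drawn from genes above a floor on mean counts. With so many changed genes the adjusted threshold is easier to pass than in the data. These rates therefore do not give the chance of calling a single receptor. Shares were tested by exact permutation. Subclusters were tested where each pool had at least 20 nuclei. All 9 receptors are named; of the lists, genes called and otherwise the 2 highest in neurons; and for each receptor with at least 200 UMIs the 5 most similar genes, of which 1 is not reported here.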

Additional observations from a re-analysis of the deposited data

Results flagged for a closer look

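In 52 groups of pools or sublibraries tested, 6 held a value far from the others of its group by Dixon's criterion, and chance flags about 1 in 20 groups. Glp1r over all neurons was 25.7 CPM in MR2, below the other 5 right pools (33.1 to 37.1 CPM). Npy2r over all neurons was 7.97 CPM in FR1, above the other 5 right pools (4.87 to 5.94 CPM). Mc4r in n24 was 40.2 CPM in FL3, against 0 to 5.44 CPM in the other left pools. The remaining 3 are the single Ghsr UMI seen in neurons, which gave 0.181 CPM over all neurons of FL2, 2.02 CPM in n9 of FL2 and 0.0791 CPM in sublibrary 2, where every other pool or sublibrary of the group had 0.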

How the results depend on the processing

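For the 6 tested receptors, 246 of 258 recomputed log2 differences kept their direction and side of the threshold, 6 passed where the reported one did not, and 6 changed sign: Lepr by side when a pool was left out (-0.0458 to 0.0229), Ntsr1 by side likewise (-0.00543 to 0.212) and without n10 (-0.0449), and Ntsr1 by labelled sex with a pool left out (-0.219 to 0.00724). Genes called by side numbered 17, but 11 with RLE factors, 66 with DESeq2, 47 with no filter, 3 without ML1 and FL1, 2 with the replicate block, and 2 to 18 with a pool left out (2 without MR2). Receptors called by side numbered 2 of those 66 genes with DESeq2, 2 of those 47 with no filter, and 0 to 1 with a pool left out. The fit with no filter tested a larger set, every gene with a UMI in neurons. By labelled sex 384 genes were called with DESeq2, 457 with no filter (1 of them a receptor, Cckar), 28 without ML1 and FL1, 3 with robust dispersion (chosen after seeing the data) and 0 to 499 with a pool left out (499 without MR1). Same-numbered left and right pools did not deviate together (correlations -0.08 to 0.17), so the numbers were not taken as pairs, although left and right pools of a sex drew on the same rats. Genes called within subclusters with a pool left out were 43 to 61 in n10, 0 to 1 in n14 and 0 to 1 in n5, where DESeq2 and the removal of high doublet scores each gave 1. Shares differed by 3.08 to 3.71 points for n5, 0.339 to 0.460 for n22 and -0.135 to 0.0350 for n23 with a pool left out.

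One added alternative, which rebuilt the marker reference, moved most n5 nuclei out of the neuron class and changed the other subclusters. It gave 4 genes called by side, Cckar 101.7, Sctr 33.9, Npy2r 12.6 and Ntsr1 33.7 CPM in their leading subclusters, and a share difference of -0.00426 points for the subcluster that then led. The cause of each change was not tested. At resolution 2 Cckar reached 321.7 and Npy2r 34.1 CPM, and at 0.5 Ntsr1 34.7 CPM. Shares of nuclei with a UMI followed the depth: thinned to 1000 UMIs and unthinned, they were 19.0% and 45.3% for Cckar, 16.7% and 40.3% for Sctr, 18.3% and 36.2% for Glp1r, 1.27% and 6.46% for Npy2r, 7.89% and 34.8% for Lepr, and 5.0% and 22.1% for Ntsr1. At this depth Ghsr, Gipr and Mc4r were too sparse for any test.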

Other observations

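Some of the 17 genes that edgeR called by side in neurons lie beside these receptors in the subclusters; they were picked after their values were seen. Xylt1, a xylosyltransferase that starts proteoglycan chains and 1 of the 10 leading genes of n5, was 84.6 CPM ± 15.5 on the left and 141 CPM ± 17.6 on the right (SD, n = 6 pools each), a log2 difference of 0.73 ± 0.12 (edgeR adjusted p = 0.0272). Rgs9, a regulator of G protein signalling and also a leading gene of n5, was 122.8 CPM ± 13.99 and 156.2 CPM ± 9.37 (log2 difference 0.34, edgeR adjusted p = 0.04). ENSRNOG00000011132, among the genes most similar to both Cckar and Glp1r over the subclusters, had a log2 difference of 0.29 (edgeR adjusted p = 0.0487). Cyp26b1, which breaks down retinoic acid and is a leading gene of n10, fell from 26.7 CPM ± 2.38 on the left to 15.8 CPM ± 2.27 on the right, a log2 difference of -0.77 ± 0.11 (edgeR adjusted p = 0.0116), beside an n10 share that was lower on the right in its mean. Without ML1 and FL1 the 3 genes called were Xylt1, Cyp26b1 and Crtac1, and without MR2 the 2 called were Cyp26b1 and Crtac1.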
